A study of Mus musculus with 3 samples.

Results

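Fas and its relatives in the tumour necrosis factor (TNF) superfamily were measured in 3 primary cultures of mouse eye pigment epithelium. The 10 genes are the receptor genes Fas, Tnfrsf1a, Tnfrsf1b, Tnfrsf10b, Tnfrsf11b, Tnfrsf12a, Tnfrsf19 and Tnfrsf21 and the ligand genes Fasl and Tnfsf10. They were chosen by name, with earlier results of these data known. All 20 probe sets annotated to these genes alone were taken from a table that represents 18193 genes. The cultures came from the retina (RPE), the ciliary body (CBPE) and the iris (IPE) of C57BL/6 mice aged 6 to 8 weeks, and each was hybridised to 1 array. RPE was grown in DMEM with 20% fetal bovine serum, and CBPE and IPE in RPMI 1640 with 10%, so in any comparison with RPE the medium and the tissue of origin cannot be told apart. All cultures were kept overnight in serum-free medium before RNA was taken. Cytokeratin-positive cells made up more than 95% of RPE and CBPE cells after 14 days and more than 99% of IPE cells, for which the labels used here state no culture time.

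TNF superfamily ligands are membrane proteins, some of them shed, that cluster receptors on the target cell. A subset of the receptors, the death receptors, carry a cytoplasmic death domain that recruits the adaptor FADD or TRADD and can start caspase-driven apoptosis, while other receptors bind TRAF proteins and act mainly through NF-κB. In the eye, Fas ligand on ocular tissue is known for its part in immune privilege, because activated T cells that carry Fas can be killed by it.

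The series title names the T cell response to these cells. The values are linear signals. Signals were read as measured only above a floor, taken as the median over the non-control probe sets: 16.8 in RPE, 17.3 in CBPE and 14.5 in IPE. Control probe sets whose bacterial transcripts were not in the samples reached 16.6 in RPE, 20.2 in CBPE and 7.9 in IPE, so a CBPE signal under 20.2 was treated as a bound when a fold was computed. A difference is counted when it is at least 2-fold and at least 1 of the 2 signals is above its floor. Each culture has 1 array here, so no test was made, and no error between cultures is known. The one error that can be measured is how far probe sets of a gene disagree. The SD of their log2 differences, pooled over genes, was 0.45 for RPE minus IPE, 0.49 for CBPE minus IPE and 0.29 for RPE minus CBPE. Only probe sets with a signal above 100 on both arrays entered it, so it does not cover dimmer signals.

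Transcripts of all 8 receptor genes exceeded the floor in at least 1 culture, whereas Fasl and Tnfsf10, both ligand genes, were under it on every array. Between RPE and IPE, 1 of these 8 genes was at least 2-fold higher in RPE and 4 were lower, against 9.87% and 10.5% of the 12446 genes compared (20.3% in either direction). Between CBPE and IPE, 2 were higher in CBPE and 2 lower, against 11.8% and 12.5% of 12831 genes (24.3% in either direction). Between RPE and CBPE none of 7 was at least 2-fold different, against 8.01% of 12860 genes, with 3.75% higher and 4.26% lower in RPE. The median log2 difference of the receptor genes was -0.94 for RPE minus IPE, -0.43 for CBPE minus IPE and -0.60 for RPE minus CBPE, beside 0.02, 0.04 and 0.00 over all genes. By the brightest probe set of each gene, Fas had its top signal in RPE, Tnfrsf10b in CBPE and the other 6 receptor genes in IPE. The share of all genes with their top signal in each culture was not counted, so these numbers have no comparison. IPE did not stay on top for Tnfrsf11b, whose CBPE minus IPE difference went from -0.09 to 0.15 with quantile normalization. Nor did it for Tnfrsf1b, at 36.6 in CBPE and 26.8 in IPE by its dimmer probe set. Tnfrsf19 passed the floor through IPE alone by its brightest probe set, so a difference there was bound to appear.

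The arrays differed in ways that touch every comparison with IPE. The geometric mean signal of 12 hybridisation control probe sets was 1941 in RPE, 3192 in CBPE and 1239 in IPE. The 3′ to 5′ signal ratio of the Actb controls was 2.25 in RPE, 2.26 in CBPE and 1.5 in IPE, and the brightest signals were 13849, 19334 and 8441. With the scaling as deposited, 48.5% of the genes called in RPE against IPE were higher in RPE, against 28.9% with equal medians, which moved the median of all genes by -0.21. In CBPE against IPE the shares were 48.5% and 28.5%, with a shift of -0.25. Member differences under that scaling are given below where they cross 2-fold. The comparisons of RPE and of CBPE with IPE share the IPE array.

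The stretches before the start sites are shown for the 3 genes that differed at least 2-fold from IPE in both RPE and CBPE with the same direction. Of these genes, Fas was higher than in IPE, and Tnfrsf19 and Tnfrsf21 were lower. Each stretch holds the 250 bases before a RefSeq start, 5′ to 3′ in the direction of the gene (GRCm38.p6). Capitals mark matches on either strand to the AP-1 site TGANTCA or the GC box GGGCGG. The Fas stretch is chr19:34290409-34290658, plus strand. Tnfrsf19 has 2 listed starts, at chr14:61046856-61047105, minus strand, and chr14:61037988-61038237, minus strand. The Tnfrsf21 stretch is chr17:43016305-43016554, plus strand.
Fas: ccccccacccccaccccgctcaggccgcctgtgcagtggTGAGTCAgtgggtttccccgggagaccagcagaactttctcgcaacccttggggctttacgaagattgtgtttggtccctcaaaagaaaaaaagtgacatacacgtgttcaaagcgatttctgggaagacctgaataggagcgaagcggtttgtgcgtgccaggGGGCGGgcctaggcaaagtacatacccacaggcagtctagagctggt
Tnfrsf19, start 1: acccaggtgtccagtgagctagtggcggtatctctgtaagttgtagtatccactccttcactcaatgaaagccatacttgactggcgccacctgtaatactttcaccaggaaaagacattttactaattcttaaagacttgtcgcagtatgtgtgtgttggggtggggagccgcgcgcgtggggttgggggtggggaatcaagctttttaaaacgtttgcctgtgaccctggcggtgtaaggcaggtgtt
Tnfrsf19, start 2: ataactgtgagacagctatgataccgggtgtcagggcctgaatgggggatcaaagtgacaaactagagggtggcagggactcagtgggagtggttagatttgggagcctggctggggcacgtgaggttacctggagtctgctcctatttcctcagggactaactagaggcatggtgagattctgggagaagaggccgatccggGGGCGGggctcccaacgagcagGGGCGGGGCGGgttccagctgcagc
Tnfrsf21: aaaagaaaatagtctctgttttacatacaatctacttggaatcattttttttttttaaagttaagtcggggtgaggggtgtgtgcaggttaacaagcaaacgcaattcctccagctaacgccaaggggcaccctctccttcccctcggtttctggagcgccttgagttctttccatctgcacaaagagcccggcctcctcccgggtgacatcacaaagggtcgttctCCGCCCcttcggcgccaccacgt

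The Fas stretch held 1 AP-1 site, 211 bases before the start, and 1 GC box 47 bases before it. No other of the 9 stretches found for 8 of the 10 genes held an AP-1 site, a motif present in 6.75% of all 32851 promoter stretches of this length. A GC box was present in 6 of the 9 stretches and in 32.7% of all stretches. The first Tnfrsf19 stretch held neither motif, and the second held 3 GC boxes, the last 2 of them overlapping. Neither the TATA box TATAAA, present in 12.4% of all stretches, nor the NF-κB consensus, present in 7.25%, was found in any of the 9. These are letter matches and say nothing of binding.

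**Figure D1:**
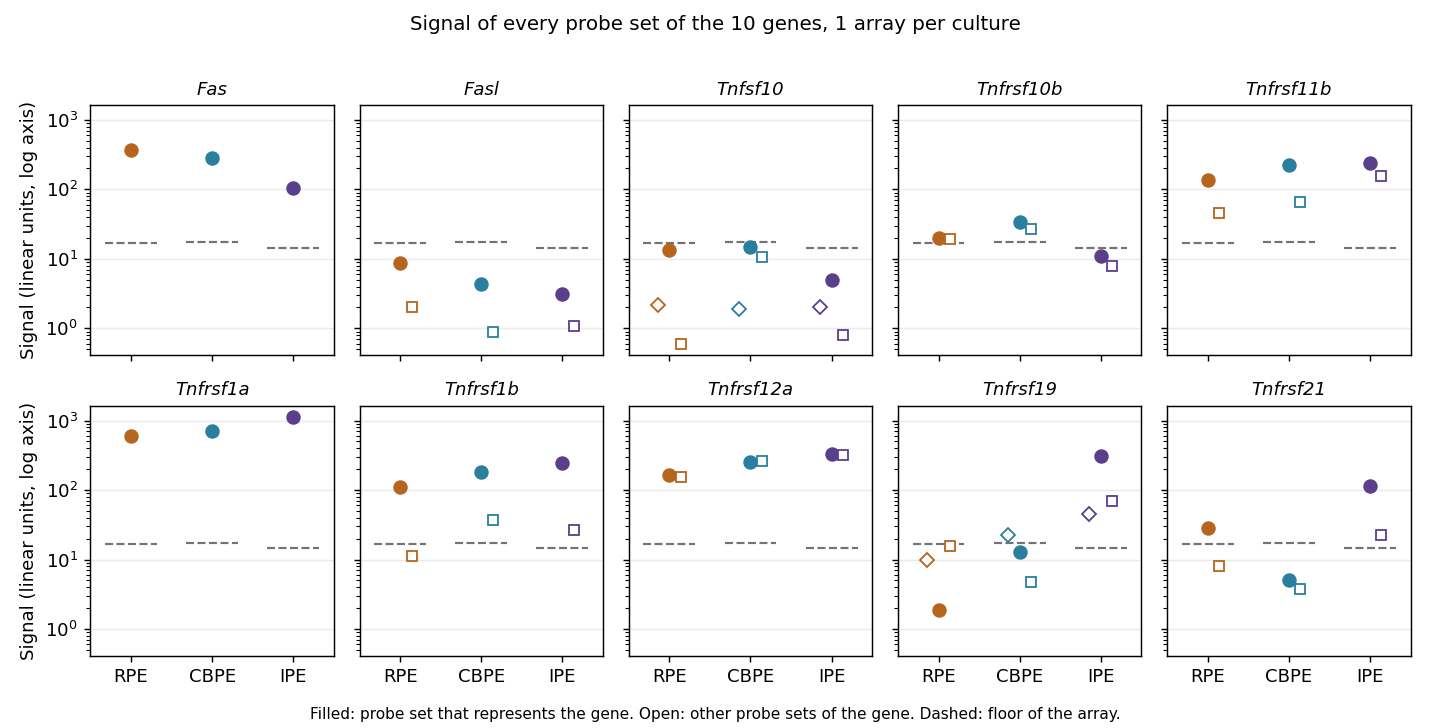
Signal of every probe set of the 10 genes on a log axis, with a column of points per culture. Filled circles mark the representative probe set of a gene, open symbols its other probe sets, and dashed lines are the floors of 16.8, 17.3 and 14.5. Fas is highest in RPE at 368.2, Tnfrsf19 stands above the floor in IPE at 305.9, and Fasl and Tnfsf10 lie under the floor throughout.

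Fas encodes the death receptor that binds Fas ligand and recruits FADD. Its only probe set gave a signal of 368.2 in RPE, 287.4 in CBPE and 104.2 in IPE. All 3 cultures were well above the floor, and RPE and CBPE lay close together above IPE. Fas was 3.53-fold higher in RPE than in IPE (log2 difference 1.82) and 2.76-fold higher in CBPE than in IPE (1.46). Both differences exceed the probe-set SD, but no other probe set of the gene could check them. Of all genes compared, 2.12% were as far up in RPE against IPE and 5.23% in CBPE against IPE. RPE exceeded CBPE by 1.28-fold, a log2 difference of 0.36 against a probe-set SD of 0.29. Over the 6 processing alternatives Fas stayed at least 2-fold higher than in IPE in both cultures, with log2 differences of 1.61 to 2.04 for RPE and 1.21 to 1.75 for CBPE. The summed signals of skeletal muscle and of fibroblast markers were likewise lowest in IPE. Summed signals here and below include those under the floors. Of 9 skeletal muscle markers, 6 were above the floor in RPE, 5 in CBPE and 1 in IPE, with summed signals of 1514, 1502 and 78.4, most of it Myh2 at 808.8 in RPE and 1362.8 in CBPE, while the muscle regulator Myog was under the floor on every array. All 11 fibroblast markers were above the floor in every culture, with sums of 34808 in RPE, 46747 in CBPE and 25529 in IPE, most of each from 3 collagen genes. They did not move together: against IPE, RPE had 4 at least 2-fold higher and 2 lower, and CBPE 5 higher and 2 lower. Pdgfra, at 958.1 in RPE, 776.6 in CBPE and 2020.3 in IPE, and Fbln1, at 379.1, 221.6 and 677.7, were highest in IPE. After quantile normalization the RPE minus IPE differences of Col1a1, Col1a2 and Col3a1, which were 0.69, 1.08 and 0.74, were 0.10, 0.27 and -0.09. The part of these cells in the Fas result was not tested. In RNA from whole cultures, fewer cells of a type and less RNA per cell cannot be told apart.

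Fasl encodes the ligand of Fas, which cytotoxic T cells and natural killer cells use to kill. Its brighter probe set gave 8.8 in RPE, 4.4 in CBPE and 3.1 in IPE, and the other gave 2 in RPE, 0.9 in CBPE and 1.1 in IPE. All 6 signals were under the floors and under the level of the absent bacterial transcripts in RPE, CBPE and IPE, so they have no order and give no fold. Of 11 T and natural killer cell markers measured, 1 was above the floor in RPE, 3 in CBPE and 1 in IPE, with summed signals of 67.7, 97.5 and 72.8. Cd3e, Cd3d, Cd3g and Nkg7 were under the floor on every array. In RPE only Cd8a, at 17.2, was above it. The sums include signals under the floors and give no order of the cultures.

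Tnfsf10 encodes TRAIL, a ligand that kills through death receptors. Its 3 probe sets gave 13.5, 2.2 and 0.6 in RPE, 15, 1.9 and 10.7 in CBPE, and 5, 2 and 0.8 in IPE. None of these reached a floor, and TRAIL message was not detectable on these arrays.

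Tnfrsf10b encodes the TRAIL receptor of the mouse that carries a death domain. Its 2 probe sets gave 20 and 19.1 in RPE, 34.3 and 26.9 in CBPE, and 10.9 and 7.8 in IPE. Both ordered the cultures the same way, with CBPE highest and IPE under the floor, and the RPE signals were barely above the RPE floor of 16.8. Against IPE, Tnfrsf10b was higher in CBPE by at least 2.37-fold with the brighter probe set and at least 1.86-fold with the other. The log2 difference by the brighter probe set was 1.24 and was under 2-fold with 3 alternatives: 0.22 with the floor at the 60th percentile, 0.99 with equal medians and 0.89 with multi-transcript probe sets left out. RPE exceeded IPE by at least 1.38-fold, under the 2-fold limit. Tnfrsf22 and Tnfrsf23 encode decoy TRAIL receptors of the mouse without a death domain. Tnfrsf22 was at 35.8 in RPE, 47.4 in CBPE and 25 in IPE, within 2-fold, though its CBPE minus IPE difference of 0.92 was 1.11 after quantile normalization. Tnfrsf23 was at 42.5 in RPE and 31.7 in CBPE against 13.6 in IPE, under the IPE floor, and was at least 2.93-fold higher in RPE and at least 2.19-fold higher in CBPE, although the CBPE difference was 0.87 on the log2 scale with equal medians. These genes are close paralogs, and how well their probe sets tell them apart was not tested.

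Macrophage and endothelial markers were highest in CBPE, as Tnfrsf10b was. Of 14 macrophage and leukocyte markers measured, 8 were above the floor in RPE, 11 in CBPE and 6 in IPE, with summed signals of 482, 2447 and 372. Of 10 endothelial markers, 4 were above it in RPE, 9 in CBPE and 4 in IPE, with sums of 384, 1724 and 912. Most of each sum came from Emcn, at 211.2 in RPE, 1114.8 in CBPE and 745.1 in IPE. Lyz2, a macrophage lysozyme, was at 231.6 in RPE, 1288.4 in CBPE and 130.9 in IPE, while Ptprc, the pan-leukocyte antigen gene, was under the floor on every array. Their part in the Tnfrsf10b result was not tested.

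Tnfrsf11b encodes osteoprotegerin, a secreted decoy receptor for RANKL and TRAIL. Its brighter probe set gave 138.5 in RPE, 222.2 in CBPE and 237.3 in IPE, and the other gave 46.4, 66.8 and 155.6. Both put RPE lowest and IPE highest, but they disagreed on CBPE against IPE, which were 1.07-fold apart by the brighter probe set and 2.33-fold by the other. RPE was 1.71-fold lower than IPE by the brighter probe set and 3.35-fold lower by the other, and with the mean of both the log2 difference was -1.26, past 2-fold. After quantile normalization the small CBPE minus IPE difference turned from -0.09 to 0.15. Tnfsf11, the RANKL gene, was at 8 in RPE, 7.5 in CBPE and 1.2 in IPE, and Tnfrsf11a, the gene of its signalling receptor, was at 14.3, 14.5 and 7.9 in RPE, CBPE and IPE, all under the floors.

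Tnfrsf1a encodes the widely expressed TNF receptor with a death domain. Its only probe set gave 603.3 in RPE, 716.2 in CBPE and 1106.9 in IPE. All 3 signals were far above the floors, with RPE and CBPE close together below IPE. Tnfrsf1a was 1.83-fold lower in RPE and 1.55-fold lower in CBPE than in IPE, both within 2-fold. The RPE difference of -0.88 passed 2-fold with quantile normalization (-1.08) and with equal medians (-1.09).

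Tnfrsf1b encodes the other TNF receptor, which lacks a death domain and is prominent on leukocytes and endothelium. Its brighter probe set gave 110.4 in RPE, 181.4 in CBPE and 245.1 in IPE, and the dimmer gave 11.2, 36.6 and 26.8. Both probe sets had RPE lowest, and they disagreed on whether CBPE or IPE was highest. By the brighter one RPE lay 2.22-fold below IPE (log2 difference -1.15), which was -0.94 after quantile normalization and -0.91 with the mean of both probe sets. CBPE and IPE were 1.35-fold apart, a difference of -0.43 within the probe-set SD of 0.49. The ligand genes of both receptors, Tnf and Lta, were under the floor on every array, at 12.5 and 1.1 in RPE, 4.6 and 1.7 in CBPE, and 11.3 and 2.3 in IPE.

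Tnfrsf12a encodes Fn14, the receptor for the ligand TWEAK, which signals through TRAF proteins and is induced by growth factors and injury. Its 2 probe sets gave 165.5 and 155.6 in RPE, 250.3 and 265.5 in CBPE, and 334 and 318.6 in IPE. They gave closely similar values on each array and the same order, with RPE lowest and IPE highest. Tnfrsf12a was 2.02-fold and 2.05-fold lower in RPE than in IPE by its 2 probe sets. The log2 difference of -1.01 lies at the 2-fold limit and was -0.86 after quantile normalization. CBPE was 1.33-fold and 1.2-fold lower than IPE, within the probe-set SD. Tnfsf12, the TWEAK gene, was not analysed here.

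Tnfrsf19 encodes TROY, a receptor of embryonic neuroepithelium and skin that can take the place of the neurotrophin receptor p75 in the Nogo receptor complex. Its brightest probe set gave 1.9 in RPE and 12.9 in CBPE, both under the floor, against 305.9 in IPE. The second gave 15.5 in RPE, 4.7 in CBPE and 68.8 in IPE, and the third 10, 22.4 and 44.6. Every probe set had IPE highest and RPE under the floor, and 1 of 3 had CBPE above it. Against IPE, the brightest probe set put Tnfrsf19 at least 18.2-fold lower in RPE and at least 15.1-fold lower in CBPE. By the other probe sets it was at least 4.1-fold and at least 2.65-fold lower in RPE, and at least 3.41-fold and 1.99-fold lower in CBPE. The direction and the call held under all 6 alternatives, but the size of the log2 difference depended on the floor and the probe sets: it ranged from -4.40 to -1.61 in both comparisons. With RPE and CBPE under the floor by the brightest probe set, neither other floor could turn the direction.

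By the Euclidean distance between centred log2 signals on the 3 arrays, with signals under the floor set to it, Zic1, Arhgap20 and Prune2 were nearest to Tnfrsf19 among 13344 genes. Zic1, a zinc finger transcription factor gene, was at 3.9 in RPE, 4 in CBPE and 285.2 in IPE. Arhgap20 was at 55.4 in RPE, 74.9 in CBPE and 973.2 in IPE, and Prune2 was at 16.1, 10.5 and 213.9. Because Tnfrsf19, Zic1 and Prune2 were under the floor in RPE and CBPE, the distance rests on the IPE signal for them and gives no order of likeness. Ngfr, which encodes p75 itself, was at 11.8 in RPE, 23.2 in CBPE and 101 in IPE, lower than in IPE by at least 6.01-fold in RPE and by 4.35-fold in CBPE. A second probe set of Ngfr above the floor had the same direction with log2 differences of -0.37 and -0.33. Of its partners in the Nogo receptor complex, Lingo1 was not highest in IPE, at 28.1 in RPE, 50.2 in CBPE and 17.5 in IPE. Rtn4r was at 17.2 in RPE, barely above the floor, and at 8.3 in IPE, under it. In CBPE it was at 18, under the 20.2 of absent bacterial transcripts, so Rtn4r gives no order of the cultures.

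Tnfrsf21 encodes a death-domain receptor found on neurons and lymphocytes that dampens T helper cell responses in mice. Its brighter probe set gave 28.9 in RPE, 5.1 in CBPE and 113 in IPE, and the other gave 8, 3.8 and 22.5. IPE was highest by both, and CBPE was under the floor by both. Against IPE, Tnfrsf21 by its brighter probe set was 3.91-fold lower in RPE and at least 5.59-fold lower in CBPE, and by the dimmer at least 1.34-fold and at least 1.11-fold. The log2 differences of -1.97 and -2.71 were -0.42 and -0.38 with multi-transcript probe sets left out, where the dim probe set alone remains, and were -0.18 in both with a fixed floor of 100.

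The summed signals of glial and of pigment epithelium markers were also highest in IPE, though not every marker was. Of 9 glial and Schwann cell markers measured, 4 were above the floor in RPE, 5 in CBPE and 7 in IPE, with summed signals of 1441, 734 and 6676. Most of the IPE sum came from Apoe at 3950.2 and Glul at 2558.2, and Sox10, a neural crest and glial factor, was at 6.1 in RPE, 15.5 in CBPE and 25.7 in IPE, above the floor in IPE alone by its brightest probe set, while a second Sox10 probe set differed by -0.01 between CBPE and IPE. Other glial markers had another order: Fabp7 was at 13.6 in RPE, 35.6 in CBPE and 8.5 in IPE, Aqp4 exceeded the floor only in CBPE, at 20.8, and Slc1a3 was at 47.2 in RPE, 14.4 in CBPE and 25.7 in IPE. Of 10 pigment epithelium markers, 10 were above the floor in RPE, 8 in CBPE and 10 in IPE, with sums of 2025, 1164 and 6042. The keratin genes of this list ran the other way, Krt8 at 26.2 in RPE, 95.3 in CBPE and 17.4 in IPE and Krt18 at 218.6, 422.4 and 144.1, while the other 8 were at least 2-fold lower than in IPE in both RPE and CBPE. Their part in the Tnfrsf19, Tnfrsf21 and Ngfr results was not tested. Checked against its label, the RPE culture had pigment genes such as Tyr, at 493.3, while of 7 retinal pigment epithelium markers 2 were above the floor in RPE, 3 in CBPE and 2 in IPE, with summed signals of 116, 229 and 215. Rpe65, Lrat and Rgr, visual cycle genes that define mature retinal pigment epithelium, were under the floor on every array. Rdh5 was at 84.3 in RPE, 143.9 in CBPE and 124.3 in IPE, Rlbp1 at 17.3, 5.3 and 84, and Best1 and Ttr exceeded the floor only in CBPE, at 25.1 and 41.1.

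**Figure D2:**
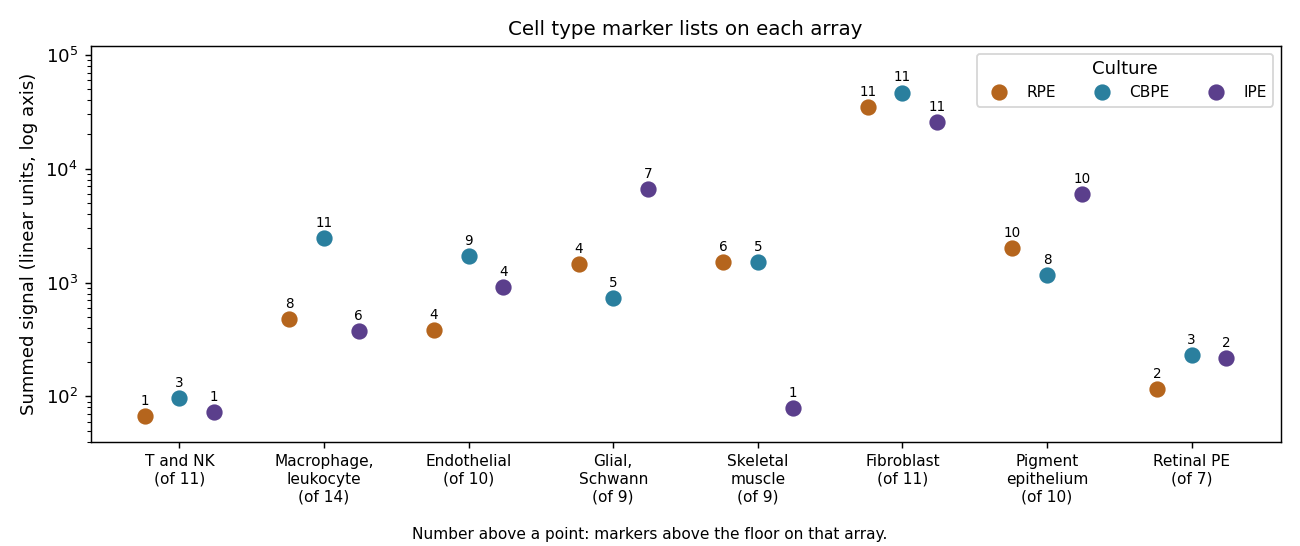
Summed signal of 8 lists of cell type markers on each array (log axis), with the number of markers above the floor over each point and the number measured under each list. The sums include signals under the floors. T and natural killer cell markers sum to between 67.7 and 97.5, macrophage and endothelial markers are highest in CBPE, glial and pigment epithelium sums in IPE, and skeletal muscle markers are lowest in IPE.

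**Figure D3:**
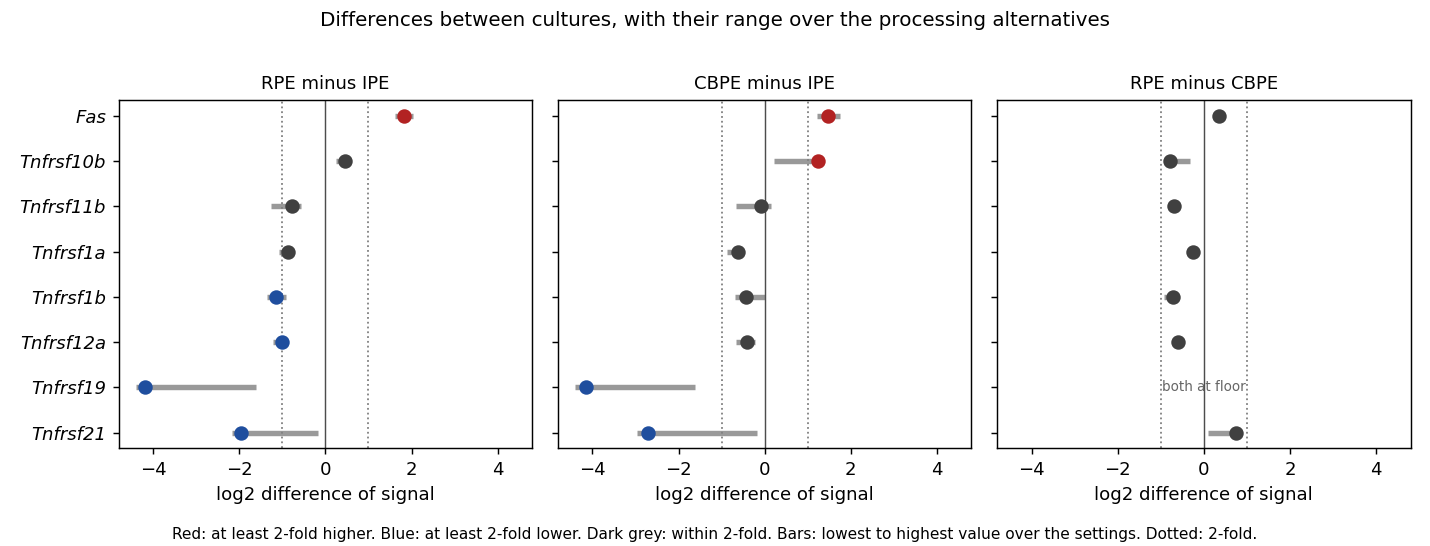
Log2 difference of signal for the 8 receptor genes above the floor, in 3 comparisons. Points are the values as reported, grey bars the range over the processing alternatives and dotted lines the 2-fold limit. Fas lies beyond 2-fold higher and Tnfrsf19 beyond 2-fold lower in both comparisons with IPE over the whole range. The bars of the other differences of at least 2-fold reach inside that limit. These are Tnfrsf21 in both comparisons with IPE, Tnfrsf10b in CBPE minus IPE, and Tnfrsf1b and Tnfrsf12a in RPE minus IPE. The bar of Fas comes from quantile normalization and equal medians alone.

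Among the other receptors of the superfamily, 19 of 20 listed genes were measured. Against IPE, 1 was at least 2-fold higher and 2 lower in RPE of 11 above the floor, and 3 were higher and 2 lower in CBPE of 9. For this list and those below, the shares over all genes were 9.87% higher and 10.5% lower in RPE against IPE. They were 11.8% and 12.5% in CBPE against IPE, and 8.01% in either direction between RPE and CBPE. The median log2 difference of this list was 0.37 for RPE minus IPE and 0.64 for CBPE minus IPE, beside 0.02 and 0.04 over all genes. Tnfrsf9 encodes 4-1BB, a co-stimulatory receptor of activated T cells, and was at 17 in RPE, 27.7 in CBPE and 111 in IPE, which put RPE 6.53-fold and CBPE 4.01-fold below IPE. Its ligand gene Tnfsf9 was at 19.5 in RPE, 41.5 in CBPE and 79.8 in IPE, 4.09-fold lower in RPE and 1.92-fold lower in CBPE, where the log2 difference was -1.20 with equal medians. Receptor and ligand thus had the same order of cultures, with IPE highest and RPE near its floor.

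Cd40, a receptor of antigen-presenting cells, exceeded the floor only in CBPE, at 36.9 against 13.3 in RPE and 0.7 in IPE, which made CBPE at least 2.54-fold higher than IPE. It had the same CBPE-high pattern as the macrophage markers given above, and their part in it was not tested. Relt was at 30.6 in RPE, 50 in CBPE and 17.1 in IPE, which put CBPE 2.92-fold above IPE. In the comparison of RPE with CBPE, 1 of 12 genes of this list was at least 2-fold higher in RPE and 2 were lower. Eda2r, a receptor for an ectodysplasin isoform, was 2.28-fold higher in RPE at 80.4 against 35.2. Tnfrsf4, the OX40 gene, was 2.02-fold lower at 22.8 against 46, and Cd40 was at least 2.2-fold lower. Ltbr, the lymphotoxin beta receptor gene, was nearly level at 444.5 in RPE, 451.9 in CBPE and 418.9 in IPE.

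Of 16 listed further ligand genes 12 were measured, and 4 were above the floor in RPE, 3 in CBPE and 2 in IPE. Of the 4 compared between RPE and IPE, 1 was at least 2-fold higher and 1 lower in RPE, and none of 3 passed 2-fold between CBPE and IPE. Between RPE and CBPE 1 of 4 passed it, Tnfsf9, which was 2.13-fold lower in RPE. The ectodysplasin gene Eda was 2.1-fold higher in RPE than in IPE, at 54.9 against 26.2, by its brightest probe set, while 1 of its 3 probe sets above the floor had a log2 difference of -0.06. The death receptor adaptors, caspases and inhibitors had 15 of 18 listed genes measured. With IPE as the base, RPE had 1 at least 2-fold higher and 1 lower among 14 above the floor, and CBPE had 2 higher and 1 lower among 15. The FADD adaptor gene Fadd was at 84.1 in RPE, 98.8 in CBPE and 71.8 in IPE, and Casp8, the initiator caspase gene, was at 262.2, 321.7 and 185.1, both within 2-fold, though the CBPE minus IPE difference of Casp8 was 1.04 after quantile normalization. Mlkl, an effector of necroptosis, was at 92.2 in RPE, 140.9 in CBPE and 46 in IPE, which put RPE 2-fold and CBPE 3.06-fold above IPE.

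Cflar encodes c-FLIP, which blocks caspase-8 at death receptors. It was at 116.8 in RPE, 103.4 in CBPE and 257.9 in IPE by its brightest probe set, 2.21-fold and 2.49-fold lower in RPE and CBPE than in IPE. The direction was not shared by its other probe sets above the floor, which reached log2 differences of 0.33 for RPE minus IPE and 0.88 for CBPE minus IPE, and the RPE difference was -0.93 after quantile normalization. Faim2, a Fas inhibitor of neurons, exceeded the floor only in CBPE, with a signal of 36.6.

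Of the TRAF and NF-κB signalling genes, 13 of 16 were measured, and among 12 above the floor none was at least 2-fold higher than in IPE and the same 2 were lower in RPE and in CBPE. These were Rela, an NF-κB subunit gene, at 210.6 in RPE, 260.4 in CBPE and 589.1 in IPE, and Traf6 at 32.2, 33.7 and 72.2. Traf6 was 2.24-fold and 2.14-fold lower in RPE and CBPE, and its log2 differences were -0.91 and -0.77 after quantile normalization. The list median turned from -0.17 to 0.10 in RPE minus IPE and from -0.14 to 0.16 in CBPE minus IPE after that normalization.

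All 14 listed NF-κB target genes were above the floor on every array, and they split. In RPE against IPE 3 were at least 2-fold higher and 3 lower, and in CBPE against IPE 2 were higher and 2 lower, with medians of 0.05 and -0.06, the RPE median turning to -0.01 after quantile normalization and to -0.16 with equal medians. Vcam1, a leukocyte adhesion molecule gene, was at 1812.6 in RPE, 1317.9 in CBPE and 534 in IPE, and Ccl2, a monocyte chemokine gene, at 3175.1, 3851.2 and 1248.5. Cxcl1, a neutrophil chemokine gene, was 2.27-fold higher in RPE than in IPE. In the other direction, the interleukin-6 gene Il6 was at 111.4 in RPE, 221 in CBPE and 500 in IPE, and the cyclooxygenase gene Ptgs2 at 106.8, 196.5 and 400.8. Bcl3, an NF-κB cofactor gene, was at 87.8 in RPE, 115.8 in CBPE and 227.2 in IPE, with log2 differences of -1.37 for RPE minus IPE and -0.97 for CBPE minus IPE, the CBPE value being -1.23 with equal medians. Nfkbia, the NF-κB inhibitor gene, was within 2-fold by its brightest probe set, at 2807.7 in RPE, 2579 in CBPE and 3386.4 in IPE. Its CBPE minus IPE difference by that probe set was -1.10 after quantile normalization. Over its 5 probe sets the log2 differences as deposited ran from -1.07 to -0.23 for RPE minus IPE. They ran from -1.08 to 0.50 for CBPE minus IPE and from -1.57 to 0.51 for RPE minus CBPE. Between RPE and CBPE none of the 14 reached 2-fold as deposited by its brightest probe set, and Il6 did after quantile normalization (-1.02). Of the sheddase genes that cleave TNF superfamily proteins, Adam10 was 2.21-fold and 2.04-fold lower in RPE and CBPE than in IPE, at 830.2 and 897.9 against 1831.9, and Adam17, which releases TNF, was within 2-fold by its brightest probe set, at 324, 287.6 and 417.3 in RPE, CBPE and IPE, while its other 2 probe sets were at least 2-fold lower in RPE and in CBPE.

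**Figure D4:**
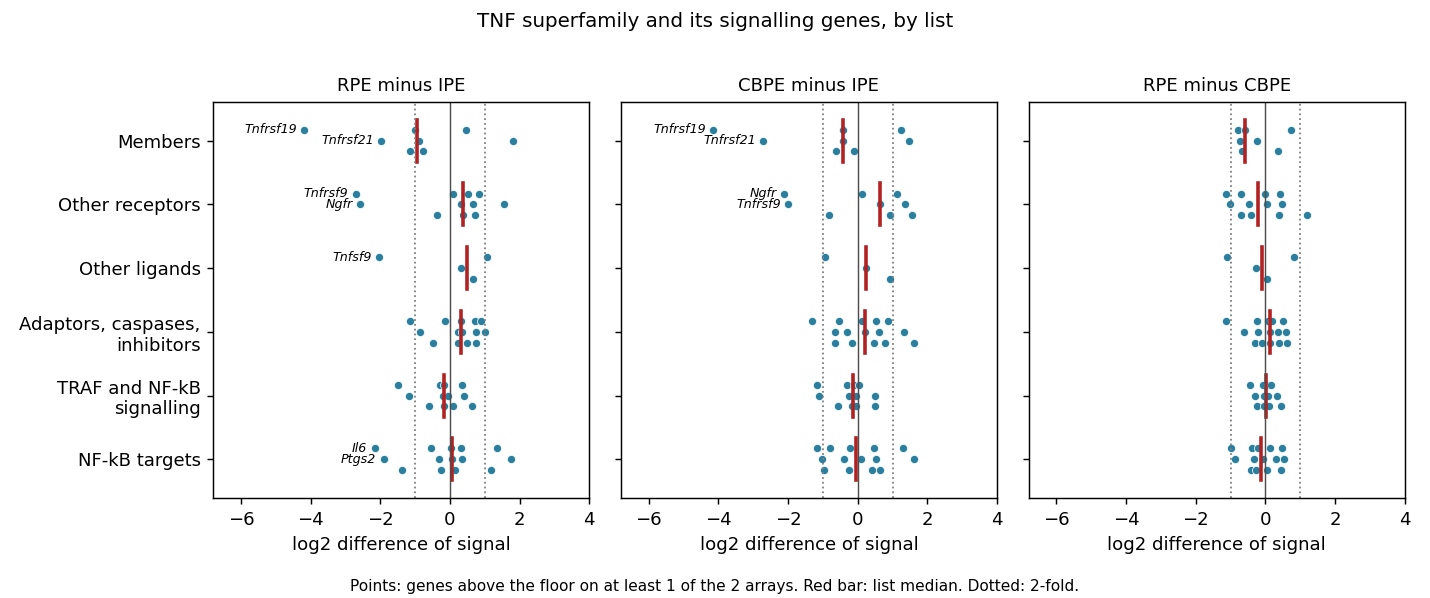
Log2 difference of signal for the genes of 6 lists in 3 comparisons. Each point is a gene whose signal exceeded the floor in either culture, red bars are list medians and dotted lines the 2-fold limit. Tnfrsf19, whose place is set by the floor of RPE and CBPE, Tnfrsf21, Tnfrsf9 and Ngfr lie left of the 2-fold limit in both comparisons with IPE, and between RPE and CBPE few points pass 2-fold.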

How the data were processed

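RNA of 3 primary cultures was measured on 1 array each. Per the labels' protocols, cDNA made with an oligo-dT primer was transcribed in vitro to biotin-labelled cRNA. The deposited table holds linear intensities of 45101 probe sets. The summary method is not given in the sources used here, and a 2% trimmed mean of 100.001 on each array shows a common scaling, which was kept. Gene names came from the 2016 platform annotation, updated by gene identifier to RefSeq GRCm38.p6, and 932 probe sets with several genes were not named.

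Signals under each array's 50th percentile of non-control probe sets were set to that floor before log2, and of several probe sets of a gene the brightest by mean log2 signal stands for it. Where the dimmer signal was under the floor, or under 20.2 in CBPE, the fold is over that limit and written as "at least". Promoter sequences are from RefSeq (GRCm38.p6). The members and lists were chosen with earlier results of these data known. Named genes are all members, the genes that pair with them, and up to 4 genes per list and comparison with at least a 2-fold difference by mean signal; others are named with values for context only. Alternatives were another floor, another scaling and another choice of probe sets. Array number limits the precision: with 1 array per culture no spread between cultures exists. Python 3.11.15, numpy 2.4.6, pandas 2.3.3 and matplotlib 3.10.9 were used.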

Additional observations from a re-analysis of the deposited data

How the results depend on the processing

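Of the 9 differences of at least 2-fold among the members, 4 kept their call under all 6 alternatives (floor at the 60th percentile, fixed floor of 100, quantile normalization, equal medians, mean of all probe sets, and multi-transcript probe sets left out), namely those of Fas and Tnfrsf19 in both comparisons with IPE. All 9 kept their sign. These checks were not equal for all genes. Fas could change only under quantile normalization and equal medians, as its only probe set had every signal above 100. Tnfrsf19 was under the floor in RPE and CBPE by its brightest probe set, so neither other floor could turn its sign. Without replicates these are values, not tests. In CBPE against IPE 4 members were at least 2-fold different, and 2 with the fixed floor of 100 and 2 with multi-transcript probe sets left out. Of the 2 higher in CBPE, 1 was left with the floor at the 60th percentile, with the fixed floor, with equal medians and without those probe sets. Of the 2 lower in CBPE, 1 was left with the fixed floor and without those probe sets. Equal medians rescale the floors with the arrays and move every CBPE minus IPE difference by about -0.25, which takes Tnfrsf10b to 0.99. The fixed floor lies above all Tnfrsf10b signals. Leaving out multi-transcript probe sets leaves the dimmer probe set of Tnfrsf10b and of Tnfrsf21. The counts for RPE against IPE and RPE against CBPE stayed within 1.5 times their values under these alternatives. Of 23 member differences, 2 below 2-fold changed sign under an alternative, those of Tnfrsf11b (0.15 after quantile normalization) and Tnfrsf1b (0.01 with the mean of its probe sets), both in CBPE minus IPE. Of 37 differences of at least 2-fold in the pathway lists, none changed sign, 4 were under 2-fold after quantile normalization (Traf6 in both comparisons with IPE, Cflar in RPE and Ptgs2 in CBPE) and 5 with equal medians (Eda, Mlkl and Cxcl1 in RPE and Tnfrsf23 in CBPE against IPE, and Tnfrsf4 in RPE against CBPE). Of the pathway differences within 2-fold, 7 passed 2-fold after quantile normalization (Ripk3 in RPE and CBPE, Tnfrsf22, Casp8, Nfkbia and App in CBPE against IPE, and Il6 in RPE against CBPE) and 5 with equal medians (Ptpn13 in RPE, and Tnfsf9, Eda2r, Nfkbie and Bcl3 in CBPE against IPE). Signals near the floors limit Tnfrsf10b, Fasl and Tnfsf10. Replicates could not be left out in turn, with 1 array per culture. No paired analysis was possible because each culture has 1 array and the labels give no replicate numbers.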
